A study of Mus musculus with 26 samples.

Results

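The 10 genes described here act at hepatic lipid droplets and were measured in 26 mouse liver libraries: the perilipins Plin2, Plin3, Plin4 and Plin5, the CIDE genes Cidea, Cideb and Cidec, the triglyceride lipase gene Pnpla2, its inhibitor G0s2, and Pnpla3. They were chosen by name, as a gene group, and make up 10 of the 19638 genes listed in at least 1 library. In 0-day livers labelled Hdac3-/-, and in liver tumors, Plin2 and Cidec transcripts were several-fold higher than in wild-type liver or in adjacent tissue, while reads assigned to Cideb were lower.

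Liver cells store triglyceride in droplets, which consist of a neutral lipid core under a phospholipid layer that proteins bind. Perilipins coat that surface and control the access of lipases, CIDE proteins promote the exchange of lipid between droplets and thereby their growth, and adipose triglyceride lipase, encoded by Pnpla2, starts triglyceride breakdown. In liver Plin2 is the main coat protein and rises with fat load, Cidec is low in lean liver and induced in steatosis, and Cideb also takes part in the lipidation of very low density lipoprotein.

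RNA of liver tissue was sequenced in 8 groups, all labelled C57BL/6. Livers labelled Alb-Cre:Hdac3-/- were taken at 0, 7, 21 and 50 days after sPH, which the labels expand as successive PH, from mice of 2 to 3 months (n = 3, 4, 4 and 3), and were set against wild-type (WT) livers of 2 to 3 months (n = 3). Liver tumors of recipient Fah-/- mice of 12 months (n = 3) and liver tumors labelled Alb-Cre:Hdac3-/- of 10 months (n = 3) were set against adjacent non-tumor liver, also labelled Alb-Cre:Hdac3-/-, of 10 months (n = 3). Alb-Cre acts in hepatocytes, so other liver cells should keep Hdac3, a histone deacetylase. The sources do not say what the 0-day livers had undergone, whether the WT mice had any surgery, what the recipient Fah-/- mice received, or whether replicates came from separate animals. P-values therefore measure the spread between these libraries, which may be technical.

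Libraries held 8602526 to 11094627 expected counts over 15369 to 16373 listed genes. The Hdac3 label did not show in the gene's own level: Hdac3 averaged 45.7 ± 3.39 CPM in 0-day livers and 33.9 ± 2.51 CPM in WT livers (SD, n = 3 each), and whole-gene counts do not show a deleted exon. Fah averaged 384 ± 109 CPM in tumors labelled Fah-/-, 367 ± 103 CPM in tumors labelled Hdac3-/- and 1002 ± 128 CPM in adjacent tissue (SD, n = 3 each). Its level did not set the tumor groups apart. CPM here are counts scaled to a common library size with TMM factors over the 26 libraries, and they compare 1 gene across libraries. Levels of different genes are compared on the authors' FPKM, which are scaled by transcript length. In bulk tissue, fewer cells of a type and less RNA per cell cannot be told apart. Y-linked transcripts summed to at most 0.261 CPM in the 0-day and WT libraries, to 40.9 to 93.0 CPM in the 7-, 21- and 50-day libraries, to 40.8 CPM in replicate 3 of the tumors labelled Hdac3-/- and to 27.1 CPM in replicate 2 of adjacent tissue.

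The 10 genes lie on 8 chromosomes (GRCm38). Plin4 (gene ID 57435), Plin5 (gene ID 66968) and Plin3 (gene ID 66905) share chromosome 17, within a span of 189925 bases, chr17:56100587-56290511, with 1648 bases between Plin4 and Plin5. Plin2 (gene ID 11520) lies at chr4:86626910-86670217, Cidec (gene ID 14311) at chr6:113424634-113435760, G0s2 (gene ID 14373) at chr1:193272160-193273188, Pnpla2 (gene ID 66853) at chr7:141455188-141460743 and Pnpla3 (gene ID 116939) at chr15:84167776-84189521. Cidea (gene ID 12683) lies on chromosome 18.

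Cideb (gene ID 12684, chr14:55754052-55758424, minus strand) overlaps the 3′ part of Nop9 (gene ID 67842, chr14:55745693-55755634, plus strand), whose product is a nucleolar protein of ribosome assembly. In the GENCODE annotation of GRCm38, 860 of the 1212 exon bases of Cideb, 71.0%, are also exon of Nop9 on the other strand. Neither the labelled library kit nor any other source used here states that strand was kept. Whether reads of Cideb and Nop9 were told apart over that stretch is therefore not known. Nop9 values are given beside those of Cideb for that reason. Deposited Cideb counts were whole in tumors labelled Fah-/-, at 677, 709 and 719. Whole counts do not show which gene the reads of that stretch came from. No other of the 10 genes shared more than 8.0% of its exon bases with another annotated gene. For Pnpla3 only 1313 exon bases were checked in this way, while its deposited length is 4649 bases.

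Promoter windows of 250 bases before to 50 after the annotated start, from RefSeq (GRCm38.p6), are shown for Plin2, Cidec and Cideb, the 3 genes that passed in 0-day livers and in both tumor groups. They are written 5′ to 3′ on the gene's own strand, in lower case with motif matches in capitals. The Plin2 window is chr4:86670010-86670309, minus strand, with CCAAT first, the E-box CACGTG next, 4 bases before the start, and the GC box GGGCGG last. Both Cidec starts are shown, chr6:113435711-113436010 and chr6:113434715-113435014, minus strand, because the deposited gene value pools their transcripts. Neither Cidec window held a match. The Cideb window, chr14:55758375-55758674, minus strand, held TATAAA and GGGCGG.
Plin2: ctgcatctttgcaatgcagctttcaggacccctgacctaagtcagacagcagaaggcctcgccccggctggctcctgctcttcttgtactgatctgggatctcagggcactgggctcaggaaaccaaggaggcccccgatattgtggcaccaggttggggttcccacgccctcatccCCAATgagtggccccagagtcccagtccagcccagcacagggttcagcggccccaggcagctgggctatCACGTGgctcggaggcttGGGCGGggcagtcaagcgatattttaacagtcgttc
Cidec, upstream start: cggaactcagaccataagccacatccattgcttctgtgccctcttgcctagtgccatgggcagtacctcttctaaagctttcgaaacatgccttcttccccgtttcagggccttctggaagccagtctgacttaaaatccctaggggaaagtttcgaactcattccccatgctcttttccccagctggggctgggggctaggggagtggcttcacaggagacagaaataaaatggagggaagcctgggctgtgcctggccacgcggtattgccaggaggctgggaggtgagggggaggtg
Cidec, downstream start: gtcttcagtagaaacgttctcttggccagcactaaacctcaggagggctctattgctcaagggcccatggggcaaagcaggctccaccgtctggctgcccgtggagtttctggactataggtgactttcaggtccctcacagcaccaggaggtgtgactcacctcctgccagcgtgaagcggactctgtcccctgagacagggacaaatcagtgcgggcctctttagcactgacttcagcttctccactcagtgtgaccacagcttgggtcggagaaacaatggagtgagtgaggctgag
Cideb: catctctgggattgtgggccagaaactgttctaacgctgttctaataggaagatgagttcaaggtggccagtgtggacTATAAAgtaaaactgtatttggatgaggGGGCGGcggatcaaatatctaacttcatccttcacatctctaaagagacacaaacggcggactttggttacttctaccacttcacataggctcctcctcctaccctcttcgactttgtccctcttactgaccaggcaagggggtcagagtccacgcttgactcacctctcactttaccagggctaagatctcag

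A set of 7 motifs was searched on both strands in the 11 windows of 9 genes, and the same was done for all 32851 windows. CACGTG was found at Plin2 and in 7.15% of all windows, and the cAMP response element TGACGTCA at Pnpla3 and in 1.79%. Matches to GGGCGG were found in 35.7% of all windows, to CCAAT in 37.4% and to TATAAA in 13.6%. No window of these genes held the strict PPAR element, 2 direct copies of AGGTCA with 1 base between them, found in 0.0396% of windows, or TCACNCCAC, a sterol response element found in 1.24%. A match describes the letters only.

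On the length-scaled FPKM, Plin2 was the most abundant of the 10 genes in 7 groups and Cideb in adjacent tissue, where Cideb averaged 208 ± 13.3 FPKM and Plin2 134 ± 50.2 FPKM (SD, n = 3). In 0-day livers Plin2 reached 1365 ± 101 FPKM, against 255 ± 81.6 FPKM in WT livers. Plin4, best known from adipose tissue, averaged between 0.257 FPKM at 50 days and 3.40 FPKM in WT livers. Pnpla3, the mouse counterpart of a human gene linked to fatty liver, averaged between 0.18 FPKM in tumors labelled Fah-/- and 1.82 FPKM in WT livers. Pnpla3 counts were estimated and fractional, at 7.51, 11.9 and 25.8 in the 0-day libraries, so its level rests on how the authors' counting divided reads. Cidea, in mouse a gene of brown fat and of severely steatotic liver, had 0 counts in the WT and 21-day libraries and 0 to 3 counts in every other library of young mice.

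**Figure D1:**
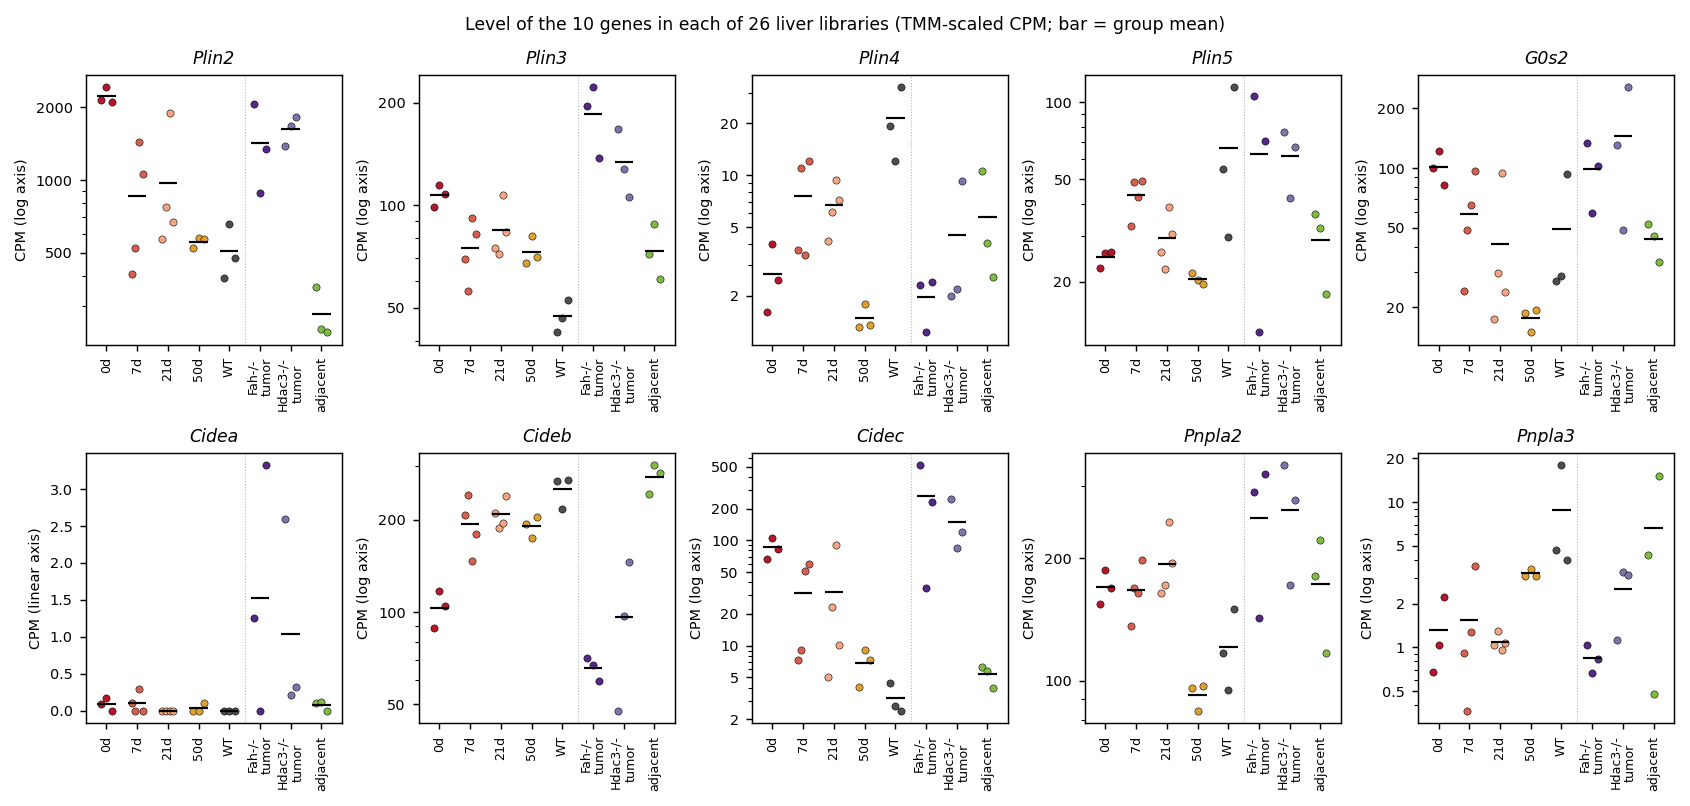
TMM-scaled CPM of each of the 10 genes in every library, with a bar at the group mean; axes are logarithmic except for Cidea. Plin2, Cidec and Plin3 stood above WT livers in all 0-day libraries, and Cidec stood above adjacent tissue in all 6 tumor libraries.

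In 0-day livers labelled Hdac3-/-, set against WT livers to ask what the Hdac3 label changes, the coat genes split: Plin2 and Plin3 rose while Plin4 and Plin5 fell. Plin2 had 2139, 2436 and 2110 CPM in 0-day livers, against 394, 657 and 475 CPM in WT livers. Plin3, which encodes a coat protein that also occurs free in the cytosol, had 99.0, 115 and 108 CPM in 0-day livers, against 42.4, 46.8 and 52.7 CPM in WT livers. For both genes every 0-day library was higher than every WT library. Plin4 had 1.61, 3.996 and 2.48 CPM in 0-day livers, against 19.3, 12.2 and 32.5 CPM in WT livers. Plin5, a coat protein that ties droplets to mitochondria, had 22.6, 25.8 and 26.1 CPM in 0-day livers, against 54.9, 29.8 and 115 CPM in WT livers. For these genes every 0-day library was lower than every WT library, and WT libraries varied widely in Plin5. In edgeR's quasi-likelihood test, with p-values adjusted by Benjamini and Hochberg's method over 13617 genes, the log2 fold change was 2.13 ± 0.47 (SE) for Plin2 (adjusted p = 0.00273) and 1.18 ± 0.19 for Plin3 (adjusted p = 0.00032). It was -2.98 ± 0.51 for Plin4 (adjusted p = 0.000486) and -1.42 ± 0.34 for Plin5 (adjusted p = 0.00438). Without WT replicate 3 the Plin5 value was -0.77 and still passed.

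Among the CIDE genes Cidec rose and the reads of Cideb fell. Cidec had 67.0, 106 and 83.2 CPM in 0-day livers, against 4.43, 2.70 and 2.43 CPM in WT livers. Cideb had 88.7, 117 and 105 CPM in 0-day livers, against 267, 217 and 271 CPM in WT livers. Neither gene's groups overlapped. The log2 fold change by edgeR was 4.75 ± 1.01 for Cidec (adjusted p = 0.00216) and -1.28 ± 0.19 for Cideb (adjusted p = 0.000167). Nop9, which shares most of the Cideb exon bases, had 83.3, 114 and 137 CPM in 0-day livers, against 222, 182 and 238 CPM in WT livers, a log2 fold change of -0.94 ± 0.19 (adjusted p = 0.00157). Cidea was too low to test.

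The lipase and its inhibitor did not pass the threshold, and Pnpla3 fell. Pnpla2 had 155, 187 and 169 CPM in 0-day livers, against 117, 95.0 and 150 CPM in WT livers, and the groups did not overlap. Its log2 fold change by edgeR was 0.50 ± 0.20 (adjusted p = 0.0558). G0s2, whose product blocks adipose triglyceride lipase, had 100.2, 122 and 81.8 CPM in 0-day livers, against 27.0, 28.8 and 93.2 CPM in WT livers. WT replicate 3 lay within the 0-day range, and the log2 fold change was 1.03 ± 0.59 (adjusted p = 0.18). Without WT replicate 3 both passed, with 0.68 for Pnpla2 (adjusted p = 0.0225) and 1.86 for G0s2 (adjusted p = 0.0359). Pnpla2 also passed with DESeq2 (adjusted p = 0.0346) and with library totals (adjusted p = 0.0157). Pnpla3 had 0.678, 1.04 and 2.22 CPM in 0-day livers, against 4.65, 17.97 and 4.01 CPM in WT livers, with all 0-day libraries below all WT libraries. Its log2 fold change was -2.75 ± 0.65 (adjusted p = 0.00422), or -1.71 without WT replicate 2 and -3.35 without 0-day replicate 3.

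In all, 3 of the 9 genes tested were higher and 4 lower in 0-day livers, beside 18.1% of all genes called higher and 19.3% called lower, 37.4% in all. The ranges of 8 of the 9 genes did not overlap between the groups, beside 56.7% of all genes. Each of the 7 calls remained in all 6 fits that left out 1 library. The median log2 fold change of the 9 genes was 0.50, and that of all genes tested was -0.001. Under scaling by library totals the median of all genes was 0.30 and 69.7% of all calls were higher, against 48.4% with TMM, and the 7 genes kept their directions and calls.

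Marker lists moved with these groups. The 7 hepatocyte markers summed to 36570 to 45920 CPM in 0-day livers and 148200 to 161000 CPM in WT livers, and 6 of 7 fell. The 5 bile duct markers summed to 380 to 629 CPM in 0-day livers and 36.0 to 55.5 CPM in WT livers, and 5 of 5 rose. The 8 macrophage markers summed to 433 to 479 CPM in 0-day livers and 213 to 351 CPM in WT livers, and the 7 stellate cell markers to 319 to 493 CPM and 155 to 186 CPM. Of the macrophage markers Adgre1, Cd68, Csf1r, Trem2 and Gpnmb rose and Timd4 fell, while Clec4f and Vsig4 did not pass. Of the stellate cell markers Pdgfrb, Acta2 and Col1a1 rose and the others did not pass. The part of these lists in the result was not tested. Of the 7 adipocyte markers 2 could be tested. Plin1 and Adipoq, the markers that define adipocytes, were at 0 in all WT libraries and at most 0.106 CPM in any library of the study. Fabp4, a fatty acid binding protein of adipocytes, macrophages and endothelial cells, was the adipocyte marker that rose, to 54.6 ± 19.9 CPM in 0-day livers against 4.48 ± 1.04 CPM in WT livers (SD, n = 3 each).

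Genes around the droplet split in the same comparison. Of 13 tested partners of lipolysis 4 were higher and 4 lower, beside 37.4% of all genes called. Abhd5, the co-activator of adipose triglyceride lipase, stood at 48.3, 48.7 and 41.5 CPM in 0-day livers, against 26.7, 24.2 and 21.6 CPM in WT livers, with a log2 fold change of 0.94 ± 0.17 by edgeR (adjusted p = 0.000598), and 30.1% of its exon bases are shared with a transcript of the other strand. Hilpda, another inhibitor of that lipase, rose by 1.96 ± 0.41 (adjusted p = 0.00183). The droplet hydroxysteroid dehydrogenase Hsd17b13 also rose, as did Lipa, the lysosomal acid lipase, whose call was lost without any WT library or without 0-day replicate 1 or 2 (adjusted p = 0.0585 to 0.133). Aadac, a triglyceride hydrolase of the endoplasmic reticulum, fell by 3.16 (SE 0.54, adjusted p = 0.000486), and Hsd17b11, Ces1d and Mgll also fell. Lipe, hormone-sensitive lipase, had a log2 fold change of -0.37 (adjusted p = 0.297).

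Of 17 tested genes of triglyceride synthesis and droplet formation 3 were higher and 3 lower, near the 37.4% of all genes. Mogat2, a monoacylglycerol acyltransferase, had 28.2, 25.8 and 39.8 CPM in 0-day livers, against 0, 0.831 and 0.422 CPM in WT livers, with no overlap. Its log2 fold change by edgeR was 6.15 ± 1.12 (adjusted p = 0.000731), or 7.09 without WT replicate 2. Bscl2, which encodes seipin, a protein of droplet assembly, had 14.7, 15.7 and 14.0 CPM in 0-day livers, against 48.6, 41.3 and 46.0 CPM in WT livers, a log2 fold change of -1.61 ± 0.24 (adjusted p = 0.000174). Of its exon bases 17.6% are shared with a gene of the other strand and 10.6% with a transcript of the same strand. Dgat2, which makes triglyceride from diacylglycerol, had a log2 fold change of 0.13 ± 0.27 (adjusted p = 0.722). The other calls, Pcyt1a and Gpam higher and Agpat2 and Dgat1 lower, were each lost in 3 to 5 of the 6 fits with a library left out. None of the 3 genes that load lipoproteins passed by edgeR, with unadjusted p of 0.0218 for Tm6sf2 as the smallest. Of 8 transcription regulators Pparg, which drives fat storage genes, rose by 0.74 ± 0.24 (adjusted p = 0.0266), a call lost without WT replicate 1 or 3 or 0-day replicate 1 or 2 (adjusted p = 0.0531 to 0.103). Ppargc1a, a co-activator of fat oxidation, fell by 2.25, Nr1h3 by 1.07, Foxo1 by 0.81 and Srebf1 by 0.90 on the log2 scale, and Ppara had -0.46 (adjusted p = 0.319). The Srebf1 call was lost without any 1 of 5 libraries (adjusted p = 0.0522 to 0.0736).

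The later days were set against day 0 to follow the livers labelled Hdac3-/- after sPH. Plin2 fell at 7, 21 and 50 days and Cideb reads rose at each of them, while Cidec, G0s2 and Pnpla2 fell at 50 days. These comparisons share the 0-day libraries, which held at most 0.261 CPM of Y-linked transcripts, while all later libraries held at least 40.9 CPM, so this difference and time cannot be told apart. Values of the 3 days stand side by side below and are not independent.

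Plin2 had 2139, 2436 and 2110 CPM at 0 days, 409.9, 525, 1440 and 1060 CPM at 7 days, 568, 776, 1895 and 668 CPM at 21 days, and 521, 575 and 572 CPM at 50 days. Cidec had 67.0, 106 and 83.2 CPM at 0 days, 7.33, 9.18, 51.2 and 59.5 CPM at 7 days, 5.01, 23.5, 90.01 and 10.1 CPM at 21 days, and 4.06, 9.16 and 7.36 CPM at 50 days. G0s2 had 100.2, 122 and 81.8 CPM at 0 days, 24.0, 48.7, 65.0 and 96.9 CPM at 7 days, 17.4, 29.7, 95.0 and 23.9 CPM at 21 days, and 18.6, 14.9 and 19.4 CPM at 50 days. The same libraries were high in all 3 genes, replicates 3 and 4 at 7 days and replicate 3 at 21 days. At 50 days all 3 libraries lay below all 0-day libraries in each gene. The 7 hepatocyte markers summed to 28930 and 35220 CPM in 7-day replicates 3 and 4, against 75410 and 121000 CPM in replicates 1 and 2. They summed to 57190 CPM in 21-day replicate 3 and to 58840 to 66570 CPM in the other 21-day libraries. The stellate cell markers summed to 179 and 305 CPM in 7-day replicates 3 and 4, to 129 and 125 CPM in replicates 1 and 2, to 342 CPM in 21-day replicate 3 and to 99.5 to 159 CPM in the other 21-day libraries. The macrophage markers summed to 773 and 499 CPM in 7-day replicates 3 and 4, against 514 and 361 CPM in replicates 1 and 2. The bile duct markers summed to 472 and 435.5 CPM, against 439 and 135 CPM, in the same libraries. In 21-day replicate 3 the macrophage markers summed to 483 CPM and the bile duct markers to 359 CPM. The other 21-day libraries held 419 to 498 CPM and 181 to 357 CPM. The part of these lists in the spread was not tested.

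**Figure D2:**
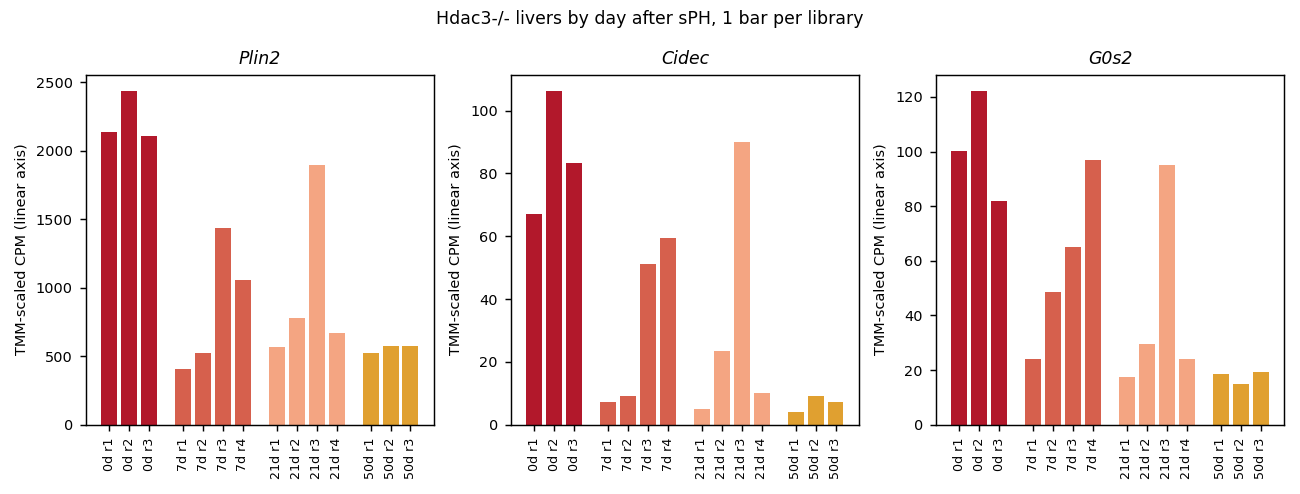
TMM-scaled CPM of Plin2, Cidec and G0s2 in each library labelled Hdac3-/-, by day after sPH, on linear axes starting at 0. Replicates 3 and 4 at 7 days and replicate 3 at 21 days carried the higher values of these days in all 3 genes.

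At 7 days 4 of the 9 genes tested passed by edgeR's quasi-likelihood test against 0 days, 2 higher and 2 lower, beside 14.8% of all genes called higher and 11.8% lower, 26.6% in all. The ranges of 5 of the 9 did not overlap, beside 37.2% of all genes. Plin2 (log2 fold change -1.38 ± 0.42, adjusted p = 0.0247) and Plin3 (-0.52 ± 0.17, adjusted p = 0.0375) fell, and Plin4 (1.48 ± 0.48, adjusted p = 0.0334) and Cideb (0.91 ± 0.18, adjusted p = 0.00233) rose. Nop9 changed by 1.01 ± 0.18 (adjusted p = 0.00152). The Cideb call remained in all 7 fits with a library left out. The Plin2 call was lost without any 0-day library or without 7-day replicate 1 or 2 (adjusted p = 0.0538 to 0.071), and the Plin3 call without the same libraries (adjusted p = 0.0703 to 0.12). That of Plin4 was lost without 0-day replicate 1 or 3 or 7-day replicate 2 or 4 (adjusted p = 0.0822 to 0.144). With the compared groups alone the Plin2, Plin3 and Plin4 calls were lost (adjusted p = 0.0581, 0.0833 and 0.0974), and with library totals those of Plin3 and Plin4 (adjusted p = 0.0505 and 0.0657).

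At 21 days 3 of 9 passed against 0 days, 2 higher and 1 lower, beside 17.8% of all genes called higher and 13.9% lower, 31.6% in all. The same 3 genes were those whose ranges did not overlap, beside 48.0% of all genes. Plin2 fell (log2 fold change -1.19 ± 0.42, adjusted p = 0.0409 by edgeR), and Plin4 (1.31 ± 0.49, adjusted p = 0.0494) and Cideb (1.01 ± 0.18, adjusted p = 0.000962) rose, with 1.13 ± 0.18 for Nop9 (adjusted p = 0.000604). The Plin2 call was lost without any 1 library but 21-day replicate 3 (adjusted p = 0.0785 to 0.112), and the Plin4 call without 0-day replicate 1 or 3 or 21-day replicate 2, 3 or 4 (adjusted p = 0.0707 to 0.183). The Plin4 call was also lost with DESeq2 size factors (adjusted p = 0.0534), library totals (adjusted p = 0.102), TMM within the fit (adjusted p = 0.0501) and no filter (adjusted p = 0.0527). Without 21-day replicate 3, Cidec (-2.73, adjusted p = 0.00697), G0s2 (-2.10, adjusted p = 0.00375) and Plin3 (-0.48, adjusted p = 0.0359) also passed.

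At 50 days 6 of 9 passed against 0 days, 1 higher and 5 lower, beside 14.4% of all genes called higher and 11.3% lower, 25.7% in all. Plin2 (log2 fold change -2.004 ± 0.47, adjusted p = 0.00627 by edgeR), Cidec (-3.64 ± 0.94, adjusted p = 0.0106) and G0s2 (-2.52 ± 0.62, adjusted p = 0.00866) fell. Pnpla2 had 95.9, 84.4 and 96.8 CPM at 50 days, against 155, 187 and 169 CPM at 0 days, with no overlap, and fell by 0.88 ± 0.20 (adjusted p = 0.00479). Plin3 fell by 0.55 ± 0.19 (adjusted p = 0.0405), and Cideb rose by 0.88 ± 0.19 (adjusted p = 0.00337), with 1.05 ± 0.19 for Nop9 (adjusted p = 0.00138). The Cidec call was lost without 50-day replicate 1 (adjusted p = 0.0523), and the Plin3 call without any 0-day library or without 50-day replicate 1 or 3 (adjusted p = 0.0678 to 0.134). The median log2 fold change of the 9 genes was -0.85, and that of all genes tested was 0.018. Plin4 (adjusted p = 0.283), Plin5 (adjusted p = 0.571) and Pnpla3 (adjusted p = 0.156) did not pass. Pnpla3 passed in a fit of the compared groups alone (log2 fold change 1.29, adjusted p = 0.0209). The ranges of 8 of the 9 genes did not overlap between 50 and 0 days, beside 54.5% of all genes.

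Marker lists moved in the same comparison. The hepatocyte markers summed to 55020 to 60920 CPM at 50 days, against 36570 to 45920 CPM at 0 days, and 3 of 7 rose. The stellate cell markers summed to 174 to 236 CPM at 50 days, against 319 to 493 CPM at 0 days, and Reln and Pdgfrb fell. The adipocyte markers summed to 20.7 to 24.0 CPM at 50 days, against 51.25 to 87.2 CPM at 0 days. Of the 2 that could be tested Fabp4 fell, from 54.6 to 9.35 CPM on average. Lipe did not pass, with 10.5 CPM at 0 days and 13.1 CPM at 50 days. Of the macrophage markers Trem2 and Gpnmb fell and Timd4 rose. Their part in the result was not tested.

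Between the later days, whose libraries all held Y-linked transcripts, few genes passed. None of the 9 genes passed between 21 and 7 days by edgeR, and none of all genes did, 0.0%. No range of the 9 was free of overlap, beside 2.82% of all genes. At an unadjusted p under 0.05 stood 1049 genes and 0 of these 9, and DESeq2 called 16 genes higher and 44 lower. Between 50 and 7 days none of the 9 passed by edgeR, beside 0.286% of all genes called higher and 0.154% lower, 0.441% in all, while 5 of 9 had an unadjusted p under 0.05. DESeq2 called 3 of them, Plin4 (adjusted p = 0.000669), Pnpla2 (adjusted p = 0.000635) and Plin5 (adjusted p = 0.0469). The ranges of 4 of the 9 did not overlap, beside 8.36% of all genes. The log2 fold change by edgeR was -2.33 for Plin4 (adjusted p = 0.0683) and -0.85 for Pnpla2 (adjusted p = 0.0589). Both passed without 7-day replicate 1 (adjusted p = 0.0336 and 0.0394), and Plin4 also without 7-day replicate 3 (adjusted p = 0.0293).

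Between 50 and 21 days Pnpla2 was the 1 gene of 9 that passed, beside 0.264% of all genes called higher and 0.176% lower, 0.441% in all. The ranges of 4 of the 9 did not overlap, beside 14.9% of all genes. Pnpla2 had 95.9, 84.4 and 96.8 CPM at 50 days, against 164, 172, 245 and 194 CPM at 21 days, so the groups did not overlap. It fell by 1.07 ± 0.19 by edgeR (adjusted p = 0.0166), a call lost without any 1 of the 50-day libraries (adjusted p = 0.0844 to 0.0909) and with library totals (adjusted p = 0.0593). Plin4 had 1.32, 1.79 and 1.35 CPM at 50 days, against 4.17, 6.09, 9.33 and 7.23 CPM at 21 days, also without overlap, with an adjusted p of 0.0991 by edgeR and 0.00358 by DESeq2.

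Genes around the droplet were also compared at the later days, where 26.6%, 31.6% and 25.7% of all genes were called at 7, 21 and 50 days. Of 13 tested partners of lipolysis 2 were higher and 2 lower at 7 days, 3 and 4 at 21 days, and 2 and 3 at 50 days. Aadac passed as higher at each day, with a log2 fold change by edgeR of 1.85, 1.80 and 2.03 at 7, 21 and 50 days, though not at 7 days without 0-day replicate 1 or 2 (adjusted p = 0.051 to 0.0532). Lipa passed as lower at each day, with -1.003, -1.09 and -0.97. Of 17 genes of triglyceride synthesis 2 were higher and 3 lower at 7 days, 2 and 4 at 21 days, and 2 and 5 at 50 days. The shares of these lists at 7 days, and of the synthesis list at 21 days, lay near those of all genes. Bscl2 stood at 45.1, 39.6 and 43.9 CPM at 50 days, against 14.7, 15.7 and 14.0 CPM at 0 days, a log2 fold change of 1.53 ± 0.24 (adjusted p = 0.000455). Mttp, which loads triglyceride onto apolipoprotein B, passed as lower at each day, with -1.20, -1.23 and -1.24. The regulator Nr1h3 passed as higher at each day, with 1.07, 1.07 and 1.25. Pparg passed at 50 days, with -0.72 (adjusted p = 0.0404), a call lost without any 0-day library or without 50-day replicate 1 or 2 (adjusted p = 0.0565 to 0.131). Dgat2 did not pass at any of the 3 days.

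In tumors, set against adjacent non-tumor liver, Plin2 and Cidec rose and the reads of Cideb fell in both tumor groups, and Plin3 rose in the tumors labelled Fah-/-. The comparisons share the adjacent libraries, which were labelled Hdac3-/- and came from mice of 10 months. Tumors labelled Fah-/- came from recipient mice of 12 months and had no adjacent tissue of their own. In their comparison tumor state, host label and age cannot be told apart. Plin2 had 2059, 888 and 1348 CPM in tumors labelled Fah-/- and 1382, 1672 and 1826 CPM in tumors labelled Hdac3-/-, against 361, 242 and 234 CPM in adjacent tissue. Cidec had 516, 35.0 and 233 CPM in tumors labelled Fah-/- and 247, 85.3 and 119 CPM in tumors labelled Hdac3-/-, against 6.33, 5.80 and 3.94 CPM in adjacent tissue. All 6 tumor libraries were above all adjacent libraries in both genes, and Cidec varied within each tumor group by several-fold. Cideb had 70.8, 67.1 and 59.8 CPM in tumors labelled Fah-/- and 47.7, 97.1 and 145 CPM in tumors labelled Hdac3-/-, against 243, 302 and 284 CPM in adjacent tissue, with no overlap. Nop9 had 70.0, 76.1 and 58.8 CPM in tumors labelled Fah-/- and 48.2, 90.1 and 132 CPM in tumors labelled Hdac3-/-, against 207, 349 and 349 CPM in adjacent tissue. Plin3 had 195, 222 and 137 CPM in tumors labelled Fah-/- and 167, 128 and 106 CPM in tumors labelled Hdac3-/-, against 71.8, 88.4 and 60.7 CPM in adjacent tissue. Its tumor libraries were all above the adjacent libraries.

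**Figure D3:**
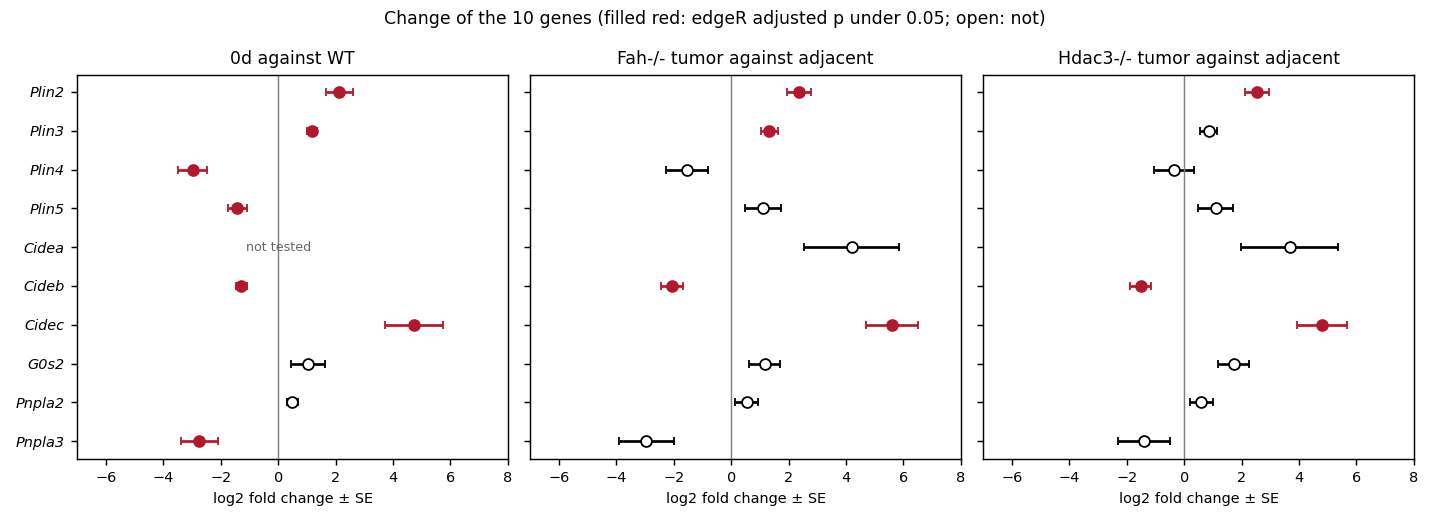
Log2 fold change with its standard error for each gene in 0-day livers labelled Hdac3-/- against WT livers, and in both tumor groups against adjacent tissue; filled points passed edgeR's test after adjustment. Plin2 and Cidec lay to the right and Cideb to the left in all 3 panels, and Cidea was not tested in the first.

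In tumors labelled Fah-/- 4 of 10 genes passed by edgeR's quasi-likelihood test, 3 higher and 1 lower, beside 8.3% of all genes called higher and 6.95% lower, 15.3% in all. The ranges of 6 did not overlap with adjacent tissue, beside 33.5% of all genes. The log2 fold change was 2.36 ± 0.41 for Plin2 (adjusted p = 0.00716), 5.60 ± 0.92 for Cidec (adjusted p = 0.00593), 1.33 ± 0.30 for Plin3 (adjusted p = 0.0186) and -2.07 ± 0.38 for Cideb (adjusted p = 0.0091), with -2.14 ± 0.39 for Nop9 (adjusted p = 0.00906). Without replicate 1 of the tumors labelled Fah-/- the Cidec value was 4.64 and still passed. The Plin3 call was lost without adjacent replicate 1 or 3 (adjusted p = 0.0573 to 0.0783). In the fit without the 2 libraries that held Y-linked transcripts, adjacent replicate 2 and replicate 3 of the tumors labelled Hdac3-/-, Plin2 had 2.27 (adjusted p = 0.0581), Cidec 5.66 (adjusted p = 0.0527) and Plin3 1.48 (adjusted p = 0.0642), and these did not pass, while Cideb did. Without adjacent replicate 2 alone all 4 passed.

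In tumors labelled Hdac3-/- 3 of 10 passed, 2 higher and 1 lower, beside 5.32% of all genes called higher and 4.89% lower, 10.2% in all. The ranges of 6 did not overlap, beside 39.3% of all genes. The log2 fold change by edgeR was 2.54 ± 0.41 for Plin2 (adjusted p = 0.00786), 4.81 ± 0.89 for Cidec (adjusted p = 0.0126) and -1.52 ± 0.37 for Cideb (adjusted p = 0.0333), with -1.74 ± 0.39 for Nop9 (adjusted p = 0.0234). Plin3 had 0.86 ± 0.30 (adjusted p = 0.094). The Cidec call was lost without adjacent replicate 2 or 3 (adjusted p = 0.0552 to 0.0596), and the Cideb call without tumor replicate 1 or 2 or any adjacent library (adjusted p = 0.0615 to 0.123). Without the 2 libraries that held Y-linked transcripts, leaving 2 tumor and 2 adjacent libraries, the log2 fold change was 2.36 for Plin2 (adjusted p = 0.0985), 5.01 for Cidec (adjusted p = 0.107) and -1.87 for Cideb (adjusted p = 0.0899). In that fit edgeR called 0 of 13502 genes, with 2426 at an unadjusted p under 0.05.

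G0s2, Pnpla2, Plin4, Plin5 and Pnpla3 did not pass in either tumor group. G0s2 had 133, 59.8 and 103 CPM in tumors labelled Fah-/- and 131, 49.1 and 257 CPM in tumors labelled Hdac3-/-, against 52.4, 45.7 and 33.9 CPM in adjacent tissue. The tumors labelled Hdac3-/- overlapped with adjacent tissue, through replicate 2, and the tumors labelled Fah-/- did not. It passed in tumors labelled Hdac3-/- without tumor replicate 2 (log2 fold change 2.14, adjusted p = 0.0463) and with DESeq2 (adjusted p = 0.0188), against 1.73 (adjusted p = 0.073) over all libraries. Pnpla2 had 291, 142 and 321.5 CPM in tumors labelled Fah-/- and 338.5, 172 and 278 CPM in tumors labelled Hdac3-/-, against 180.3, 222 and 117 CPM in adjacent tissue, and the groups overlapped. In tumors labelled Fah-/- Pnpla3 passed without adjacent replicate 2 (log2 fold change -3.50, adjusted p = 0.0233) and with DESeq2 (adjusted p = 0.0117), against -2.95 (adjusted p = 0.0681) over all libraries, and Plin5 without tumor replicate 2 (1.60, adjusted p = 0.0262).

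Cidea was detected in tumors, at 1.25, 0 and 3.33 CPM in tumors labelled Fah-/- and 2.60, 0.208 and 0.313 CPM in tumors labelled Hdac3-/-, against 0.0989, 0.118 and 0 CPM in adjacent tissue. These are 12, 0 and 40 counts in tumors labelled Fah-/-, 30, 2 and 3 counts in tumors labelled Hdac3-/-, and 1, 1 and 0 counts in adjacent tissue. The tumor libraries with the most Cidea were those with the most Cidec in the group labelled Hdac3-/-, but not in the group labelled Fah-/-. No adjusted p was under 0.05 (0.113 in tumors labelled Fah-/-, 0.19 in tumors labelled Hdac3-/-), except that of the tumors labelled Fah-/- without their replicate 2 (0.041).

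Set against tumors labelled Hdac3-/-, tumors labelled Fah-/- had no gene of the 10 and no gene of all past the threshold by edgeR, 0.0%. At an unadjusted p under 0.05 stood 928 genes and 0 of these 10, and DESeq2 called 35 genes higher and 12 lower, none of them among the 10. Pnpla3 alone of the 10 had ranges that did not overlap, beside 12.3% of all genes. The log2 fold change was -0.18 ± 0.39 for Plin2 and 0.80 ± 0.75 for Cidec. With 3 libraries each, a miss does not show that the tumors are alike.

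Of 13 partners of lipolysis 3 were higher and 3 lower in each tumor group, beside 15.3% of all genes called in tumors labelled Fah-/- and 10.2% in tumors labelled Hdac3-/-. Hsd17b13 had 761, 705 and 832 CPM in tumors labelled Fah-/- and 918, 983 and 1227 CPM in tumors labelled Hdac3-/-, against 244, 267 and 269.8 CPM in adjacent tissue, without overlap. Its log2 fold change by edgeR was 1.56 ± 0.28 (adjusted p = 0.00891) in tumors labelled Fah-/- and 2.00 ± 0.29 (adjusted p = 0.00544) in tumors labelled Hdac3-/-. Ces1d, a carboxylesterase that mobilises triglyceride for secretion, fell by 3.67 ± 0.36 in tumors labelled Fah-/- and by 2.75 ± 0.35 in tumors labelled Hdac3-/-. Aadac and Ces1f also fell in both, but the Ces1f call in tumors labelled Hdac3-/- was lost in 5 of the 6 fits with a library left out (adjusted p = 0.0774 to 0.101). Hilpda rose by 2.43 ± 0.71 (adjusted p = 0.0462) in tumors labelled Fah-/- and by 2.83 ± 0.71 (adjusted p = 0.0356) in tumors labelled Hdac3-/-, and Abhd5 by 1.00 ± 0.26 (adjusted p = 0.0314) and 0.98 ± 0.26 (adjusted p = 0.0426). The Abhd5 and Hilpda calls were lost in 4 to 6 of the 6 fits with a library left out (adjusted p = 0.0649 to 0.152), and the Hilpda value in tumors labelled Hdac3-/- was 1.70 without their replicate 1.

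Of 18 genes of triglyceride synthesis and droplet formation 1 was higher, Mogat2, and 1 lower, Bscl2, in each tumor group, a share no higher than that of all genes in tumors labelled Fah-/-, 15.3%, and near that in tumors labelled Hdac3-/-, 10.2%. Mogat2 had 114, 14.6 and 44.6 CPM in tumors labelled Fah-/- and 49.6, 43.8 and 59.6 CPM in tumors labelled Hdac3-/-, against 7.03, 0.948 and 3.31 CPM in adjacent tissue, with a log2 fold change of 3.92 ± 0.82 (adjusted p = 0.0141) and 3.75 ± 0.81 (adjusted p = 0.0216) by edgeR. Its call was lost without adjacent replicate 3 in tumors labelled Fah-/- (adjusted p = 0.0693), and in 5 of the 6 fits in tumors labelled Hdac3-/- (adjusted p = 0.0509 to 0.083). Without adjacent replicate 1 the value was 4.74 in tumors labelled Fah-/- and 4.57 in tumors labelled Hdac3-/-, and without replicate 1 of the tumors labelled Fah-/- it was 2.96. Bscl2 fell by 1.59 ± 0.31 in tumors labelled Fah-/- (adjusted p = 0.0119) and by 1.78 ± 0.32 in tumors labelled Hdac3-/- (adjusted p = 0.0111), a call that in the tumors labelled Hdac3-/- was lost without their replicate 2 (adjusted p = 0.0618). Dgat2, Lipe, Ppara and Pparg did not pass in either group, nor did the 3 genes that load lipoproteins. Nr1h3 was the 1 regulator of 8 that passed, lower in both, a call lost in 5 of 6 fits in tumors labelled Fah-/- (adjusted p = 0.0728 to 0.107) and in 3 of 6 in tumors labelled Hdac3-/- (adjusted p = 0.0542 to 0.0851).

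The hepatocyte markers summed to 25430 to 56570 CPM in tumors labelled Fah-/- and 29450 to 101100 CPM in tumors labelled Hdac3-/-, against 100400 to 128800 CPM in adjacent tissue. Of the 7 markers Cyp2e1 passed, lower in both tumor groups, and 6 did not pass in either. The macrophage markers summed to 210.4 to 283 CPM in tumors labelled Fah-/- and 111 to 211 CPM in tumors labelled Hdac3-/-, against 141 to 548 CPM in adjacent tissue. Within that list Clec4f, a Kupffer cell marker, fell in both tumor groups, to 1.58 to 5.49 CPM in tumors labelled Fah-/- and 4.36 to 29.2 CPM in tumors labelled Hdac3-/-, against 55.4 to 167 CPM in adjacent tissue. Vsig4 and Timd4, also Kupffer cell markers, fell in tumors labelled Fah-/-. Of the stellate cell markers Lrat fell in tumors labelled Fah-/- and Acta2 rose in tumors labelled Hdac3-/-. Fabp4 rose in both tumor groups. Their part in these results was not tested.

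The make-up of each family followed from these levels. Plin2 made up 95.0% ± 0.288 of perilipin FPKM in 0-day livers and 81.5% ± 7.99 in WT livers (SD, n = 3 each). It made up 85.8% ± 4.02 in tumors labelled Fah-/- and 89.99% ± 3.20 in tumors labelled Hdac3-/-, against 74.5% ± 5.02 in adjacent tissue. Plin5 made up 1.01% ± 0.0889 in 0-day livers and 10.6% ± 6.60 in WT livers. Cidec made up 36.0% ± 2.23 of CIDE FPKM in 0-day livers and 0.865% ± 0.26 in WT livers. Its share was 60.5% ± 29.99 in tumors labelled Fah-/- and 50.3% ± 23.3 in tumors labelled Hdac3-/-, against 1.34% ± 0.41 in adjacent tissue. At 50 days it was 2.45% ± 1.04. Shares of CIDE FPKM carry the Nop9 overlap of Cideb. The summed CIDE FPKM of 0-day livers ranged from 132 to 186, and that of WT livers from 185 to 219. The ratio of Pnpla2 to G0s2 FPKM was 0.533 ± 0.0953 in 0-day livers and 0.960 ± 0.428 in WT livers, with WT replicate 3, at 0.502, within the 0-day range.

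**Figure D4:**
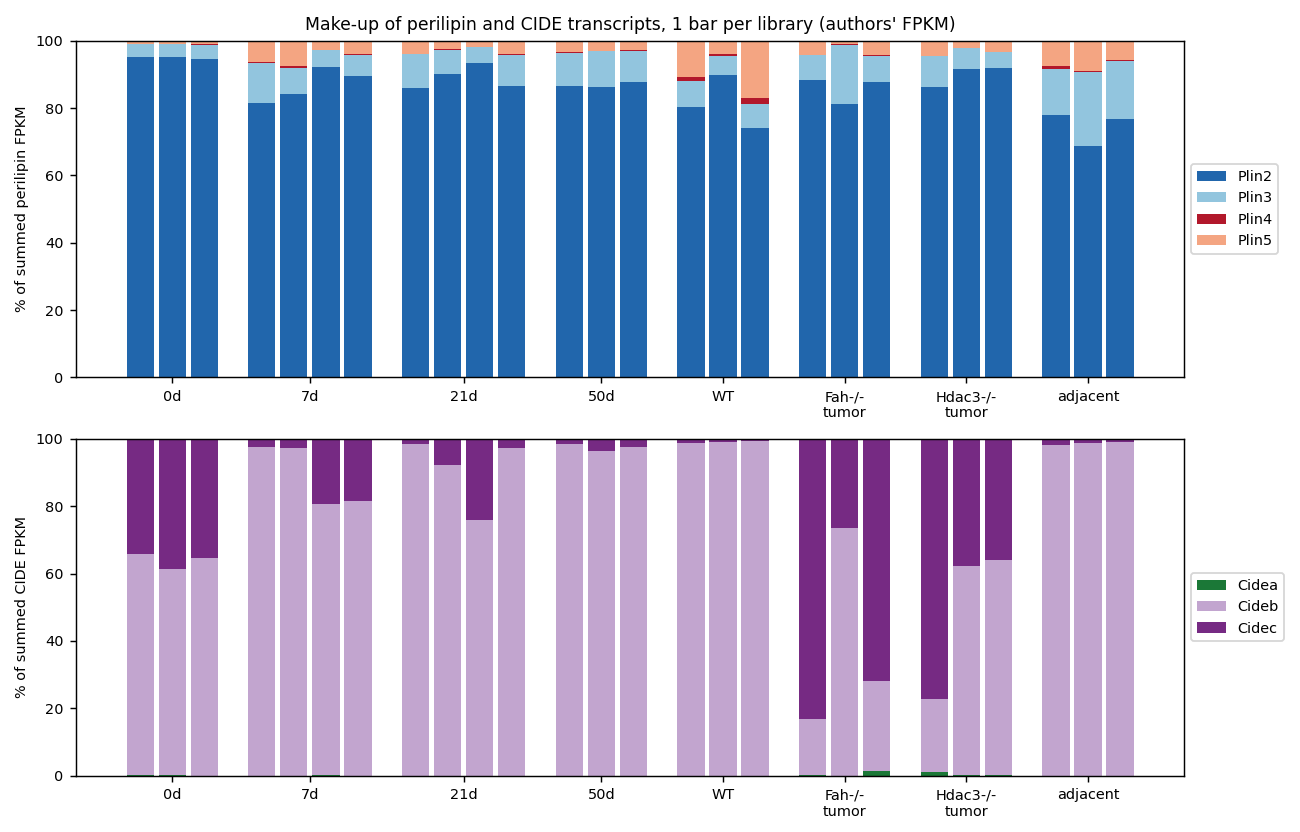
Share of each gene in the summed FPKM of the perilipins (upper panel) and of the CIDE genes (lower panel), 1 stacked bar per library. The Cidec share lay between 34.2% and 38.5% in 0-day livers and at most at 1.13% in WT livers, and between 26.5% and 83.2% across the 6 tumor libraries.

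Across the 26 libraries the 8 genes with a mean of at least 5 CPM were compared with 9797 other genes by Pearson's r of log2 values, as a description with no test, since the libraries share groups. Cidec was most like Cgref1 (r = 0.973), Slc20a1 (r = 0.959) and Psmd8 (r = 0.954). Plin2 was most like Tbl1xr1 (r = 0.944), Plekha1 (r = 0.942) and Tpm4 (r = 0.935). Cideb was most like Ebpl (r = 0.963), Sap18 (r = 0.961) and its overlapping neighbour Nop9 (r = 0.959). The closest gene was Sars for Plin3 (r = 0.953), Crat for G0s2 (r = 0.882), St3gal5 for Plin5 (r = 0.881), Slc25a10 for Pnpla2 (r = 0.843) and Eci2 for Plin4 (r = 0.823). Among the 8 genes themselves Plin2 and Cidec had r = 0.875, and Plin3 and Cideb r = -0.859. Plin4 and Plin5, whose genes lie next to each other, had r = 0.484.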

How the data were processed

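RNA of 26 mouse liver libraries was extracted with Trizol, and the labels' protocols name a TruSeq library kit. The submitters' processing notes name HISAT, Bowtie2 and mm10, with no versions. The authors deposited, per the file headers, an expected count and an FPKM for each gene, pooled over its transcripts. A gene missing from a library's list was taken as 0. Of the listed expected counts 20.1% to 21.8% per library were not whole. Gene IDs were matched to symbols by Entrez ID (19573 genes) or RefSeq accession (11 genes), and 54 genes stayed without a symbol.

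Expected counts were rounded to whole numbers and tested with edgeR 4.0.16 in R 4.3.3: TMM factors over all 26 libraries, edgeR's filter on low counts, quasi-likelihood fits of the 17 young libraries (13617 genes) and of the 9 older libraries (13187 genes), and Benjamini-Hochberg adjustment with a threshold of 0.05. FPKM served for shares between genes. Likeness used log2(CPM + 1). Tables and figures were made with Python 3.11.15, pandas 2.3.3, numpy 2.4.6 and matplotlib 3.10.9.

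The 10 genes and all lists were chosen with earlier results of these data known. Named were the 10 genes, up to 4 genes of a list with the smallest adjusted p, Abhd5, Hilpda, Lipe, Dgat2, Ppara and Pparg, and the 3 most alike genes. Other list genes and Nop9 were named after their values were seen. Replicate numbers came from the labels and did not pair the libraries. No replicate pair agreed within sampling noise. Counts were also simulated for all libraries of a fit, with a change put into few genes. Between 0-day and WT livers 26.8% of 2-fold and 78.8% of 4-fold changes were recovered over 13359 genes, with 6 false calls of 110. Between tumors labelled Hdac3-/- and adjacent tissue 0% and 28.6% were recovered over 12906 genes, with 0 false calls of 28. A larger share of genes was called in the data, which eases the adjusted threshold, so these rates are not those of the reported tests. Alternatives were DESeq2 1.42.0, its size factors, library totals, TMM within each fit, no filter, a stricter filter, the compared groups alone, a replicate block, leaving out each library, and, for older livers, leaving out the libraries with Y-linked transcripts.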

Additional observations from a re-analysis of the deposited data

Results flagged for a closer look

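At 21 days, replicate 3 stood apart from the other 3 livers labelled Hdac3-/- in 2 of the 10 genes. Plin2, the main coat gene, was at 1895 CPM in that library and at 568 to 776 CPM in the others. G0s2, the inhibitor of adipose triglyceride lipase, was at 95.0 CPM there and at 17.4 to 29.7 CPM in the others. In both genes the gap to the nearest library exceeded Dixon's 95% critical value of 0.829 for 4 samples, as a share of the group's range. Of 19 groups of 4 examined 2 stood out, and chance marks about 1 in 20 groups where values are normally distributed. Both flags came from the same library, and Plin2 and G0s2 had r = 0.676 across the 26 libraries, so they are not independent. The ratios were 0.843 for Plin2 and 0.842 for G0s2, just over the critical value. In the same library the stellate cell markers summed to 342 CPM, against 99.5 to 159 CPM in the others. The macrophage markers summed to 483 CPM, against 419 to 498 CPM, and the bile duct markers to 359 CPM, against 181 to 357 CPM. The part of these lists was not tested.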

How the results depend on the processing

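No call of the 10 genes changed direction under any alternative run. Of their 28 calls, DESeq2 and the stricter filter kept 28, DESeq2 size factors and TMM within the fit 27 each, no filter and the compared groups alone 25 each, and library totals 24. Of 176 values with a library left out, 133 kept the call. At 7 against 0 days the 4 calls became 2 with library totals and 1 to 4 with a library left out. With the compared groups alone 2 passed, Cideb and, as a new call, Plin5 (log2 fold change 0.80, adjusted p = 0.0187 by edgeR). At 21 against 0 days the 3 calls became 1 to 5 with a library left out. At 50 against 0 days the 6 calls ranged from 4 to 6 with a library left out and from 5 to 7 otherwise. At 50 against 7 days the 0 calls became 1 with DESeq2 size factors, 3 with DESeq2 and 0 to 2 with a library left out. At 50 against 21 days the 1 call became 0 with library totals, 2 with DESeq2, 3 with the compared groups alone and 0 to 1 with a library left out. In tumors labelled Hdac3-/- the 3 calls became 1 to 3 with a library left out, and 0 without the libraries that held Y-linked transcripts. In tumors labelled Fah-/- the 4 calls became 3 to 6 with a library left out. Without the libraries that held Y-linked transcripts 2 passed, Cideb and, as a new call, Pnpla3 (log2 fold change -3.50, adjusted p = 0.0434 by edgeR). The cause was not tested, beyond the smaller number of libraries.

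Scaling by library totals put the median of all genes' log2 fold changes at 0.30 in 0-day against WT livers, -0.13, -0.21 and -0.17 at 7, 21 and 50 against 0 days, 0.26 in tumors labelled Fah-/- and 0.20 in tumors labelled Hdac3-/-. The share of calls that were higher then was 69.7%, 38%, 35.2%, 39.3%, 70.6% and 65.3%, against 48.4%, 55.7%, 56.2%, 56.1%, 54.4% and 52.1% with TMM. The replicate numbers did not pair the libraries, whose deviations correlated between -0.31 and 0.44. Only libraries of equal number were compared, so a pairing of tumor and adjacent libraries under other numbers was not tested. With the replicate block 26 of 28 calls remained, and Plin4 at 7 days (adjusted p = 0.0624) and at 21 days (adjusted p = 0.0667) did not pass by edgeR, while Pnpla2 at 0 days against WT livers (adjusted p = 0.04) and G0s2 at 21 days (adjusted p = 0.0198) did.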
